A study of Saccharomyces cerevisiae with 262 samples.

Results

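The genes described here belong to yeast chromosome III and surround LEU2 and the mating-type locus MAT, at both of which the parents of this cross differed in transcript level. A gene was included when its systematic name began with YCL (left arm) or YCR (right arm), except for 17 genes set aside by name, among them LEU2 (YCL018W) and MATALPHA1 (YCR040W). This gave 135 member genes, of 152 chromosome III genes and 5605 named genes with a probe on the array. In the gene order of the systematic names, 38 members lay to the left of LEU2, 44 between LEU2 and MATALPHA1, and 53 to the right of MATALPHA1, which was 50 steps from LEU2.

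Chromosome III is the chromosome of mating type in budding yeast. MAT, on its right arm, holds either the alpha genes (MATALPHA1 and MATALPHA2) or the a genes, and the products of those genes set which mating-type-specific genes a haploid cell transcribes. Silent copies of the same coding sequences lie near the ends of the chromosome, at HML on the left arm and HMR on the right. LEU2, on the left arm near the centromere, encodes an enzyme of leucine synthesis.

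Transcripts were measured on 262 arrays of 2 colours, which formed 131 dye-swap pairs, each against a reference pool of RNA from BY4716. BY4716 (BY) is a haploid laboratory strain isogenic to S288c and gave 6 pairs. RM11-1a (RM), a wild isolate of vineyard origin, gave 12 pairs under 6 replicate numbers. All other pairs were haploid progeny of the cross, 1 strain a pair, here called segregants. The labels give no genotype at any locus, no growth medium and no treatment, and they do not say whether a parent's replicates came from different cultures, so the spread behind the parental p-values may be technical.

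Every value below is a log2 ratio of a strain's own RNA over the reference, the mean of its dye-swap pair, so that 0 is the level of the BY pool and 1 unit is a factor of 2. The direction of the deposited ratio was not stated in the sources used here. It was read from LEU2 and the mating-type genes, taking LEU2 to be the lower transcript in RM, and is likely rather than given. With the sign turned the other way, every higher and lower between the parents and between the LEU2 classes would swap, with their counts. The names alpha and a, read from mating-type genes, would then pass to the other strains, so that higher in alpha strains would stay. The number of members called in each comparison would not change. Among 17030 pairs of arrays of the same dye, 29 had a correlation over all probes below -0.3, each between a BY and a segregant array, with the lowest at -0.419. Between 3597 and 6581 probes had a value on an array, and the number of arrays limits the precision.

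The 2 markers were read as transcript classes, because the labels give none. LEU2 lay between -0.14 and 0.27 in the 6 BY replicates and between -6.48 and -5.59 in the 6 RM replicates. Segregants were called BY-like or RM-like by the nearer parental mean. The 55 BY-like segregants ranged from -2.88 to 0.95 (median 0.01) and the 58 RM-like ones from -6.34 to -3.95 (median -5.20). The classes were called from these same LEU2 values, so their ranges could not overlap. No segregant lay between -3.95 and -2.88, and BY-like strains at -2.88, -2.49 and -2.37 lay nearest the boundary. Mating type was read from the mean of STE3 and SAG1, genes of alpha cells, minus STE2, the alpha-factor receptor of a cells. This score lay at a median of 0.29 in the 4 BY replicates that had it and at -11.2 in the 6 RM replicates. It split the segregants into 54 alpha strains, from -2.60 to 1.4, and 58 a strains, from -12.2 to -5.55, and 1 segregant had no score. No member gene entered either class. The score is still not independent of the cassette genes, since the products of MAT set the transcription of mating-type-specific genes. The probe of MATALPHA1, used in neither class, placed 1 segregant in the other mating type.

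Both parental combinations were the common ones. Of the segregants with both classes, 41 were BY-like at LEU2 and alpha, 45 were RM-like and a, 13 were BY-like and a, and 13 were RM-like and alpha. The 26 strains of mixed class made up 23.2% (exact binomial 95% interval 15.8% to 32.1%, counting error only). The LEU2 and mating-type comparisons therefore use the same strains and their classes go together, so each difference was also fitted beside the other class, called the joint fit below.

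**Figure D1:**
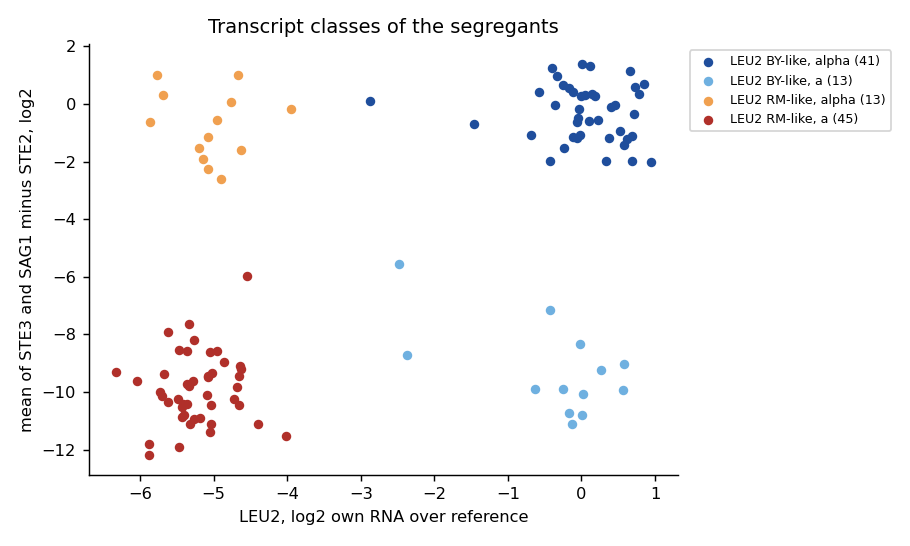
Transcript classes of the segregants with both markers: the horizontal axis is LEU2 and the vertical axis the mean of STE3 and SAG1 minus STE2, both on the log2 scale, with 1 point per strain and colours for the 4 classes. The 4 classes, called from the values on these axes, hold 41, 13, 13 and 45 strains, and a few strains lie between the main LEU2 groups.

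Across the segregants, few members differed with either class, and the largest differences were those of the mating-type genes, their silent copies and YCR041W, which lies next to MATALPHA1. By limma with Benjamini-Hochberg adjustment over all probes (threshold 0.05), 13 of 120 tested members differed between the LEU2 classes, 11 higher and 2 lower in BY-like strains. Over all 5523 tested probes 8.75% were called, 3.59% higher and 5.16% lower. Between the mating types 9 of 120 members differed, 8 higher and 1 lower in alpha strains, where 3.57% of all probes were called, 1.34% higher and 2.23% lower. The other 15 members had a value in under 80% of segregants and were not tested in these fits. The median absolute difference of the members was 0.0558 between LEU2 classes and 0.0557 between mating types, against 0.0498 and 0.0445 over all tested probes.

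Without the genes of the mating cassettes and the neighbouring YCR041W, a subset chosen after the values were seen, 8 of 115 members were called for LEU2 and 4 of 115 for mating type. These shares, 6.96% and 3.48%, were near the background.

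The genes of the mating cassettes come first. Mating type was read from genes that the products of MAT control, so the mating-type differences of these genes are no independent finding. HMLALPHA1, the alpha1 coding sequence at HML, lay between -0.58 and 0.72 (median -0.01) in 53 alpha strains and between -4.0 and -0.88 (median -2.76) in 54 a strains. The classes did not overlap. The alpha strains were higher by 2.70 (SE 0.10, limma adjusted p = 6.26e-47), and in the 4 classes the means were 0.03 (BY-like, alpha), -2.61 (BY-like, a), -0.05 (RM-like, alpha) and -2.71 (RM-like, a).

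MATALPHA2, the alpha2 repressor gene at MAT itself, lay between -0.10 and 0.11 in 5 BY replicates and between -1.18 and -0.97 in the 6 RM replicates. The parents did not overlap, and RM was lower (difference -1.04, SE 0.05, limma adjusted p = 4.79e-09). In the segregants it ranged from -0.81 to 0.59 (median -0.14) in 54 alpha strains and from -2.08 to -0.72 (median -1.26) in 55 a strains, which overlapped only between -0.81 and -0.72. Alpha strains were higher by 1.14 (SE 0.06, limma adjusted p = 1.46e-35).

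HMLALPHA2, the alpha2 sequence at HML, and HMRA2, the a2 sequence at HMR, were also higher in alpha strains. HMLALPHA2 differed by 0.90 (SE 0.06, limma adjusted p = 1.17e-26), with ranges of -0.67 to 0.55 in alpha and -1.94 to -0.38 in a strains. HMRA2 differed by 0.96 (SE 0.07, limma adjusted p = 1.42e-23), with ranges of -0.83 to 0.65 and -1.76 to -0.17. Both share sequence with MATALPHA2, since HML carries the alpha genes in full and the a2 coding sequence repeats the end of alpha2, so the transcripts behind these probes and that of MATALPHA2 cannot be told apart here. In the same way the HMLALPHA1 probe cannot be told apart from MATALPHA1.

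HMRA1, the a1 coding sequence at HMR, went the other way. It had a value in 87 segregants and was therefore outside the main fit, and it is described from a fit over probes with a value in at least 50% of segregants. It lay between -0.34 and 0.48 (median 0.02) in 36 alpha strains and between 0.47 and 4.29 (median 2.04) in 51 a strains. The ranges met only at their ends, and alpha strains were lower (difference -2.09, SE 0.14, limma adjusted p = 2.41e-23). The RM replicates of this probe spread from -0.24 to 1.54, and only 2 BY replicates had a value, -0.07 and 0.02. A copy of a1 at MAT would have the same sequence and cannot be told apart.

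YCR041W, an open reading frame next to MATALPHA1 on its right, followed mating type as the alpha genes did. It lay between -0.18 and -0.02 in 5 BY replicates and between -1.47 and -0.67 in 6 RM replicates, with no overlap. Alpha strains ranged from -0.55 to 0.80 (median 0.01) and a strains from -2.82 to 0.05 (median -1.54), an overlap of a few a strains with the alpha range. The difference was 1.58 (SE 0.10, limma adjusted p = 4.38e-28), and the means of the 4 classes were 0.05 (BY-like, alpha), -1.50 (BY-like, a), -0.01 (RM-like, alpha) and -1.56 (RM-like, a).

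These 5 genes were also called for the LEU2 class, with BY-like strains higher by 1.53 (HMLALPHA1), 0.90 (YCR041W), 0.65 (MATALPHA2), 0.61 (HMRA2) and 0.59 (HMLALPHA2). In the joint fit their LEU2 terms were between 0.05 and 0.11 and none was called, while all 5 were still called for mating type. In that fit HMLALPHA1 was higher in alpha strains by 2.65 (SE 0.12), YCR041W by 1.55 (SE 0.12) and MATALPHA2 by 1.11 (SE 0.07).

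**Figure D2:**
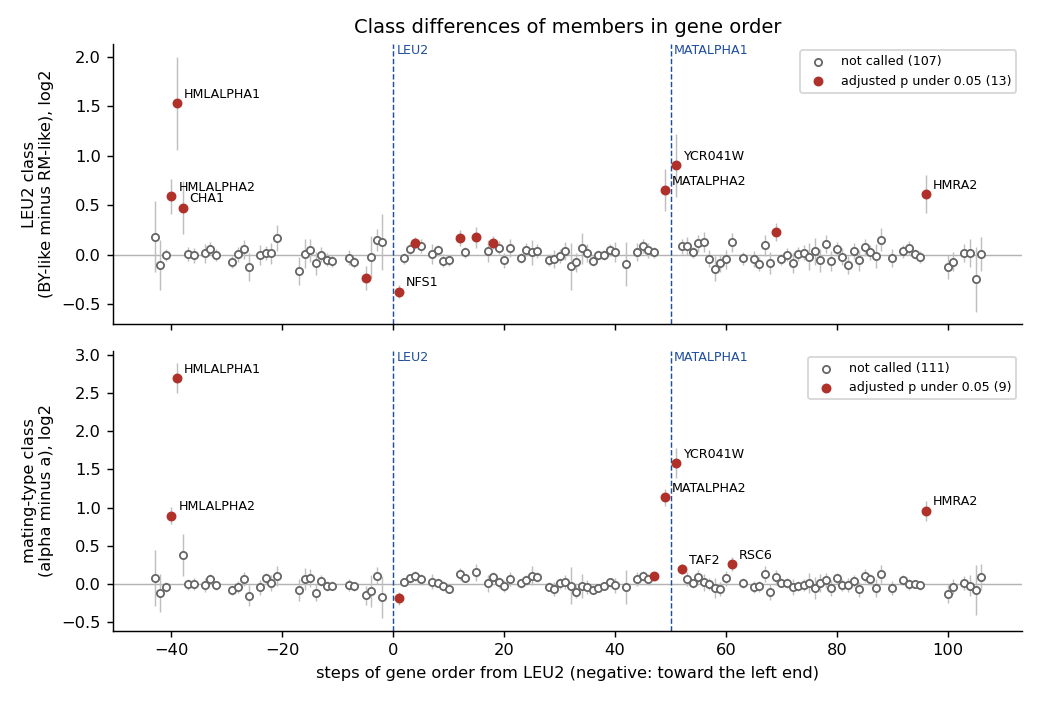
Difference between transcript classes for the 120 tested members in gene order: the horizontal axis counts steps from LEU2, dashed lines mark LEU2 and MATALPHA1, the vertical axes give the LEU2-class (top) and mating-type-class (bottom) difference in log2 units with 95% intervals, and filled points passed an adjusted p under 0.05. The called points above 0.5 are cassette genes and YCR041W at 3 places, near the left end, at MAT and toward the right end.

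Beside MAT, few other members differed between the mating types. TAF2, a subunit of the general transcription factor TFIID, lies 2 steps to the right of MATALPHA1 and ranged from -0.30 to 0.28 (median -0.02) in 47 alpha strains and from -0.69 to 0.25 (median -0.20) in 50 a strains. The ranges overlapped widely, and alpha strains were higher by 0.19 (SE 0.03, limma adjusted p = 1.72e-05). RSC6, a subunit of the RSC chromatin remodeller, lies 11 steps to the right. Its range was -0.74 to 0.27 (median -0.10) in 51 alpha strains and -1.01 to 0.16 (median -0.40) in 52 a strains, and alpha strains were higher by 0.26 (SE 0.05, limma adjusted p = 3.24e-05).

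PHO87, a low-affinity phosphate transporter 3 steps to the left of MATALPHA1, differed least. It ranged from -0.13 to 0.39 (median 0.09) in 53 alpha and from -0.42 to 0.46 (median -0.01) in 58 a strains, a difference of 0.10 (SE 0.03, limma adjusted p = 0.0115) between overlapping classes. TAF2, RSC6 and PHO87 were also called for mating type in the joint fit, where their differences were 0.20, 0.26 and 0.11. The call of PHO87 was lost on Cy5 arrays alone in both fits, and in the joint fit under 3 more alternatives (limma adjusted p up to 0.474). That fit called 8 of 120 members for mating type, all higher in alpha strains, against 0.742% of all probes, and 3 of 115 members without the cassette genes and YCR041W.

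Of the other neighbours of MATALPHA1, YCR043C and RBK1 did not pass the test. YCR043C, 3 steps to the right, differed by 0.06 between mating types (95% interval -0.03 to 0.15), and RBK1, the ribokinase gene 4 steps to the left, also by 0.06 (-0.02 to 0.13). BUD5, 2 steps to the left, encodes the activator of the bud-site GTPase Rsr1 and had a value in 87 segregants. In the fit over probes with at least 50% of segregants it was lower in alpha strains (difference -0.32, SE 0.05, limma adjusted p = 9.43e-08), and the difference was -0.28 where a value on either array of a pair sufficed. BUD5 was named after its values were seen. It was the only member besides HMRA1 among the 15 untested ones to be called for either class under those 2 fits, in which YCL042W still had too few values.

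Beside LEU2, NFS1 differed most. NFS1 encodes the mitochondrial cysteine desulfurase that supplies sulfur for iron-sulfur clusters and lies 1 step to the right of LEU2. It lay between -0.07 and 0.10 (median 0.02) in BY and between 0.20 and 0.34 (median 0.29) in RM, 6 replicates each. The parents did not overlap, and RM was higher by 0.26 (SE 0.04, limma adjusted p = 5.49e-05).

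Among the segregants NFS1 ranged from -0.26 to 0.62 (median 0.10) in 55 BY-like strains and from 0.04 to 0.85 (median 0.49) in 58 RM-like strains. The classes overlapped, and BY-like strains were lower (difference -0.38, SE 0.03, limma adjusted p = 8.83e-18). The LEU2 class accounted for 54.7% of its variance between segregants. By class the means were 0.11 (BY-like, alpha), 0.14 (BY-like, a), 0.54 (RM-like, alpha) and 0.48 (RM-like, a), so that it followed LEU2 in both mating types. In the joint fit its LEU2 term was -0.38 (SE 0.04, limma adjusted p = 1.59e-13) and its mating-type term 0.01 (95% interval -0.06 to 0.09). NFS1 was the 1 member called lower in alpha strains when mating type was fitted alone (difference -0.19).

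HCM1, a forkhead transcription factor of S phase, was the other member called for LEU2 in the joint fit, although it lies 69 steps from LEU2 and 19 to the right of MATALPHA1. It ranged from -0.98 to 0.59 (median -0.05) in 54 BY-like strains and from -0.76 to 0.35 (median -0.31) in 58 RM-like strains. The ranges overlapped, with BY-like strains higher by 0.23 (SE 0.05, limma adjusted p = 1.15e-04), and by 0.25 (SE 0.05, limma adjusted p = 8.39e-04) in the joint fit. Its parents did not pass the test (difference -0.07, 95% interval -0.17 to 0.04). The joint fit called 2 of 120 members for LEU2, against 2.73% of all probes.

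The remaining members called for the LEU2 class differed by less than 0.5. FRM2, a nitroreductase-like gene 5 steps to the left of LEU2, ranged from -0.44 to 0.48 in 48 BY-like and from -0.39 to 2.23 in 52 RM-like strains, and BY-like strains were lower (difference -0.24, SE 0.06, limma adjusted p = 0.00530). CHA1, the catabolic serine deaminase 38 steps to the left and next to HML, ranged from -2.10 to 0.61 in BY-like and from -3.28 to 0.46 in RM-like strains. BY-like strains were higher by 0.47 (SE 0.14, limma adjusted p = 0.0134) with wide overlap.

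GBP2, an RNA-binding protein of mRNA export, RER1, a retrieval receptor of the endoplasmic reticulum, YCP4, a flavodoxin-like protein, and SAT4, a kinase of salt tolerance, lie 4, 12, 15 and 18 steps to the right of LEU2. BY-like strains were higher by 0.12, 0.17, 0.18 and 0.12, all with overlapping classes. None of FRM2, CHA1, GBP2, RER1, YCP4 and SAT4 was called for LEU2 in the joint fit, where their terms had the same sign and sizes of 0.09 to 0.38.

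Within 10 steps of LEU2, NFS1, GBP2 and FRM2 were called, and the other members nearest to it were not. DCC1, a gene of sister-chromatid cohesion 2 steps to the right, differed by -0.04 (95% interval -0.09 to 0.02). BUD3, an axial bud-site gene 3 steps to the right, differed by 0.06 (-0.01 to 0.12), and its second probe also by 0.06. KCC4, a bud-neck kinase 3 steps to the left, differed by 0.15 (0.04 to 0.26, limma adjusted p = 0.0865). Of the 15 tested members within 10 steps of LEU2, the 95% interval lay wholly inside 0.2 log2 units of 0 for 10, a bound chosen after the values were seen, and so did 87 of all 120 members.

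**Figure D3:**
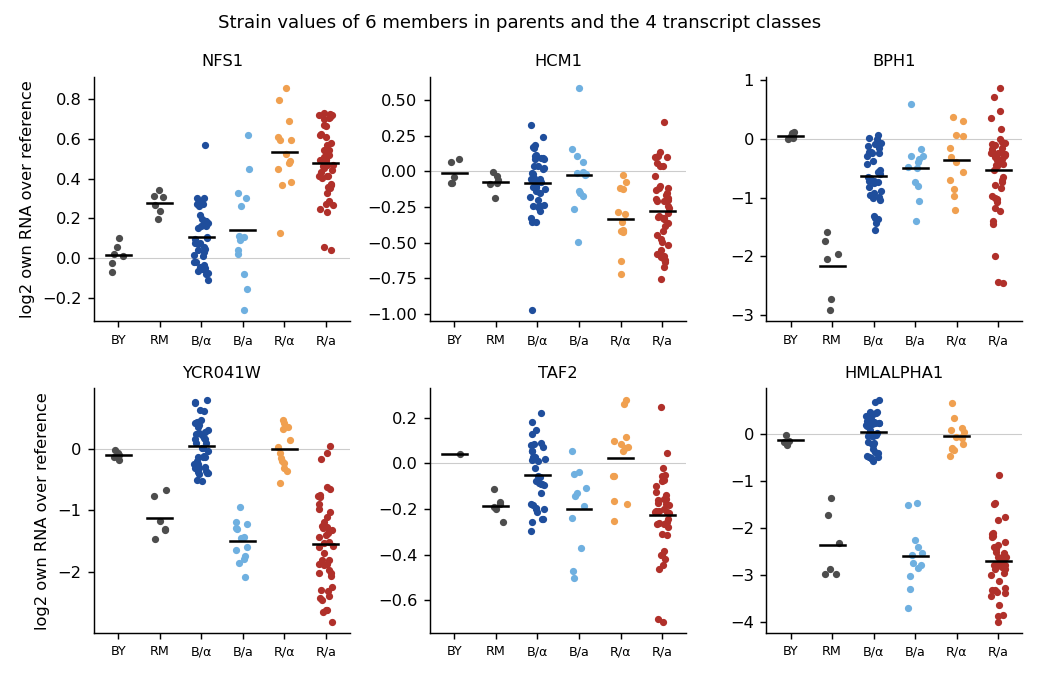
Strain values of 6 members in the parents (BY, RM) and in the segregants of the 4 classes, where B and R stand for BY-like and RM-like at LEU2 and α and a for mating type: each point is a strain or parental replicate on the log2 scale and each bar the mean of its group. The means of NFS1 and HCM1 differ by the LEU2 class and those of YCR041W, TAF2 and HMLALPHA1 by mating type, with overlapping points in all but HMLALPHA1, and BPH1 was called for neither.

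The median size of the class differences did not fall steadily with distance. Outside the cassette genes and YCR041W, however, most members called for the LEU2 class lay within 20 steps of LEU2. By steps from LEU2, the median absolute LEU2 difference was 0.0597 at 1 to 10 steps (15 tested members, 3 called), 0.0608 at 11 to 20 (14 tested, 3 called), 0.0398 at 21 to 40 (34 tested, 3 called) and 0.0587 beyond 40 (57 tested, 4 called). By steps from MATALPHA1, the median absolute mating-type difference was 0.0633 (17 tested, 4 called), 0.0393 (18 tested, 1 called), 0.0529 (34 tested, 0 called) and 0.0599 (51 tested, 4 called). The bins at 1 to 10 and 11 to 20 steps hold under 20 genes each. Without the cassette genes and YCR041W the LEU2 calls became 3 of 15, 3 of 14, 1 of 32 and 1 of 54 tested members. The mating-type calls became 2 of 15, 1 of 18, 0 of 34 and 1 of 48. Over all probes 8.75% were called for LEU2 and 3.57% for mating type. That subset was chosen after the values were seen. Of its members within 20 steps of LEU2, NFS1 alone was also called for LEU2 in the joint fit.

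By segment, the LEU2 class called 4 of 32 tested members to the left of LEU2, 6 of 40 between the markers and 3 of 48 to the right of MATALPHA1. Mating type called 2 of 32, 3 of 40 and 4 of 48. Over all probes 8.75% were called for LEU2 and 3.57% for mating type. In both comparisons HMLALPHA1 and HMLALPHA2 are among the calls on the left and HMRA2 among those on the right. Their probes cannot be told apart from genes at MAT, so these calls cannot be ascribed to the ends of the chromosome. Of the 10 members nearest the left end, 8 were tested and 3 were called for LEU2 (HMLALPHA1, HMLALPHA2 and CHA1). Of the 10 nearest the right end, 6 were tested, and limma called 0 for either class, with 0 for LEU2 and 1 for mating type at an unadjusted p under 0.05. HMRA1 was among the untested ones there. The fit over probes with at least 50% of segregants called it for mating type (difference -2.09) and for LEU2 (-1.24). Its LEU2 term in the joint fit was -0.06 and was not called.

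Adjacent members had a higher median correlation than members farther apart. As a description over the segregants, the median Pearson r was 0.113 over 96 pairs of adjacent members, 0.00943 over 369 pairs at 2 to 5 steps and between -0.00917 and 0.0112 in the wider bins. Pairs of a member and a gene of another chromosome had a median of -0.00162. The adjacent pairs spread widely, from -0.468 to 0.860 (SD 0.269), the highest being HMLALPHA2 with HMLALPHA1. The median absolute r was 0.178 for adjacent pairs and 0.145 for pairs with another chromosome. All pairs share strains and arrays, and pairs of a bin share genes.

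By role, the lists of members gave these counts, to be read against 8.75% of all probes called for LEU2 and 3.57% for mating type. Of 9 listed genes of transcription and chromatin, 7 were tested, since ADF1 is not a member and SNT1 had too few values. TAF2 and RSC6 rose in alpha strains, while limma called 0 for LEU2 (4 at an unadjusted p under 0.05). Of 7 mitochondrial genes, all tested, NFS1 alone was called. Of 10 transport and membrane genes, 9 were tested, 1 was called for mating type (PHO87) and limma called 0 for LEU2 (2 at an unadjusted p under 0.05). Of 7 genes of bud site and polarity, 6 were tested and limma called 0 in either comparison, with 2 at an unadjusted p under 0.05 in each. The untested one was BUD5, called lower in alpha strains (difference -0.32) in the fit over probes with at least 50% of segregants. Of 12 multicopy or Ty members, 9 were tested and limma called 0, with 0 for LEU2 and 1 for mating type at an unadjusted p under 0.05.

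For reference, pathway genes that are not members also differed between the classes. Of 11 genes of leucine synthesis and targets of its regulator Leu3, 10 were tested, and all 10 were lower in BY-like strains (median difference -1.02), with OAC1 and BAT1 at -2.02 and -1.65. All 5 alpha-specific genes were higher in alpha strains (median 4.38) and all 7 a-specific genes lower (median -3.15), STE3, SAG1 and STE2 included, which set the class.

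Whether the LEU2 difference of a member was unequal in the 2 mating types was tested with an interaction term. That term called 0 of 120 members by limma, 2 of them at an unadjusted p under 0.05, and 0% of all 5523 probes. The joint and interaction estimates rest on 26 strains of mixed class. The median 95% half-width of the members was 0.213 for the interaction term. It was 0.106 for LEU2 in the joint fit and 0.0897 for LEU2 fitted alone.

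Between the parents, 59 members could be tested and 32 differed by limma, 21 higher and 11 lower in RM. Over all 2639 tested probes 56% were called, 34.8% higher and 21.2% lower, so the share among the members, 54.2%, was near the background. The median absolute difference was 0.158 among the members and 0.173 over all probes. For 21 of the 59 members (35.6%) the replicates of the parents did not overlap, against 38.5% of all tested probes.

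Among the 59 tested members, AGP1, a broad-range amino acid permease 4 steps to the left of LEU2, had the largest difference in favour of RM. RM lay between 0.83 and 1.00 (median 0.95). BY replicates 1 and 2 were at 0.13 and 0.04 and the other 4 between -0.70 and -0.56, below all RM values in each case. The difference was 1.34 (SE 0.14, limma adjusted p = 3.58e-06), and 1.59 without BY replicates 1 and 2. In the segregants AGP1 ranged from -1.22 to 1.72 and its LEU2 difference was -0.02 (95% interval -0.24 to 0.19).

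YCL020W, the gag-like reading frame of a Ty element 2 steps to the left of LEU2, lay between -0.59 and -0.15 (median -0.32) in BY and between 0.29 and 0.88 (median 0.44) in RM. The parents did not overlap, with RM higher by 0.87 (SE 0.10, limma adjusted p = 7.47e-06). Ty elements have many near-identical copies, so the level cannot be ascribed to this one. CDC39, the scaffold of the CCR4-NOT deadenylase complex, was higher in RM by 0.53 (BY -0.09 to 0.05, RM 0.43 to 0.63), with no overlap, and SRO9, an RNA-binding protein, by 0.47 (BY -0.69 to -0.06, RM -0.03 to 0.18).

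BPH1, a BEACH-domain protein of membrane traffic, was the tested member lowest in RM against BY. HMLALPHA1, not tested between the parents for missing BY values, had a mean of -0.14 in 4 BY replicates and of -2.38 in 6 RM replicates. The Ty reading frame YCL019W, also untested, lay between 0.06 and 0.38 in 4 BY replicates and between -3.17 and -2.09 in 5 RM replicates. BPH1 lay between 0.00 and 0.12 (median 0.05) in BY and between -2.92 and -1.59 (median -2.0) in RM. The parents did not overlap (difference -2.22, SE 0.20, limma adjusted p = 5.92e-07). The segregants ranged from -2.46 to 0.86 with a median of -0.44, and 16 strains lay nearer the RM mean. BPH1 lies 8 steps to the left of MATALPHA1, yet its mating-type difference was -0.04 (95% interval -0.26 to 0.18) and its LEU2 difference -0.10 (-0.32 to 0.12).

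CHA1 lay between -0.06 and 0.05 (median 0.02) in BY and between -1.14 and -0.84 (median -0.97) in RM, a difference of -0.99 (SE 0.06, limma adjusted p = 6.64e-09) with no overlap. Its segregants reached -3.28, below every RM replicate. ARE1, a sterol acyltransferase, was lower in RM with a difference of -0.57 (BY 0.00 to 0.14, RM -0.61 to -0.34). YCR051W, an ankyrin-repeat protein, was lower with a difference of -0.42 (BY -0.16 to 0.43, RM -0.42 to -0.19), without overlap.

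**Figure D4:**
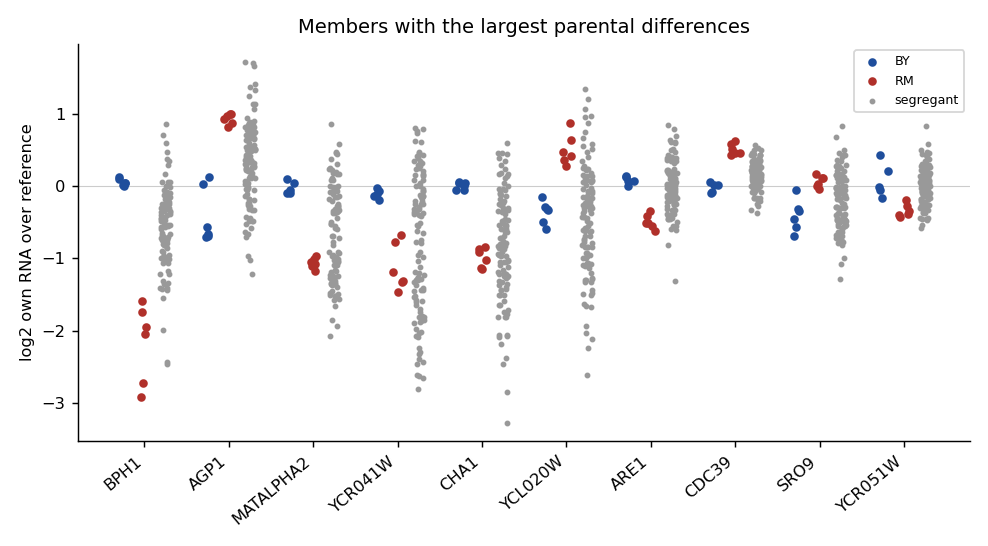
Strain values on the log2 scale of the 10 called members with the largest parental difference: blue points are BY replicates, red points RM replicates and grey points segregants. The segregants of BPH1 lie mostly near BY, with 16 strains nearer the RM mean, and those of CHA1 reach -3.28, below all RM replicates.

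The direction of the parental difference was set beside that of each class difference. Of the 32 members called between the parents, 14 had a LEU2-class difference in the parental direction and 18 a mating-type difference in that direction. These shares were 43.8% and 56.2%, against 51.2% and 56.8% for 1327 called genes of other chromosomes. Among those 32, 7 were called for the LEU2 class, 5 of them in the parental direction, and 3 for mating type, all 3 in the parental direction. Of the 1327 other genes, 171 were called for the LEU2 class, 126 of them in the parental direction, and 74 for mating type, 61 of them in that direction. The comparisons share their probes and reference pool.

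Across all segregants the members varied about as much as other genes. The SD between segregants had a median of 0.237 over 120 members and of 0.245 over 4934 genes of other chromosomes. An SD over 0.5, a bound chosen after the values were seen, was found for 13 members (10.8%) and for 9.97% of the other genes. Those 13 were the 4 tested cassette genes, YCR041W, CHA1, AGP1, BPH1, YCL020W, the heat-shock gene HSP30 and, from the list of multicopy or Ty members, GEX1, VBA3 and RDS1.

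Some of the most variable members lay near the ends of the chromosome and were called for neither class, with wide intervals. GEX1, a glutathione exchanger, and VBA3, a vacuolar amino acid transporter, sit at the left end, and RDS1, a zinc-cluster transcription factor, at the right end. They were named after their values were seen, and with 1 BY replicate each their parents were not tested.

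GEX1 lay between -4.88 and -2.52 in the 6 RM replicates and between -3.72 and -0.10 (median -1.08) in the segregants. Its LEU2 difference was 0.18 (95% interval -0.18 to 0.54) and its mating-type difference 0.08 (-0.29 to 0.44). VBA3 lay between -4.98 and -3.39 in RM, while every segregant with a value lay above that, between -2.59 and 0.77. RDS1 was high in RM, at 1.82 to 2.31, and spread from -2.60 to 3.31 (median 1.30) in the segregants, with a LEU2 difference of -0.25 (-0.58 to 0.08). GEX1 and VBA3 have close paralogs elsewhere in the genome, from which their probes cannot be told apart here.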

How the data were processed

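The deposited values are log ratios of 2-colour arrays, which the authors had centred on each array (largest absolute array mean 1.16e-08). They were taken as log2 from their range and as reference over own RNA, since the deposited table states neither. The sources used here do not give the scanner, the background correction or the spot filters. The sign was turned, and dye-swap pairs averaged (missing where either array lacked the probe). RM pairs repeating a number were averaged to 6 replicates.

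Of 7085 probes, 5645 carried 1 gene name in the platform table. For 2 members with 2 probes the one with more values was used. Gene order follows systematic names. A RefSeq gene table (assembly R64) was used for names and an alternative order.

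Differences were fitted with limma 3.58.1 (lmFit, eBayes) in R 4.3.3, with Benjamini-Hochberg adjustment over all tested probes. Parental fits used probes missing in no more than 1 replicate of each parent, and all fits probes with a value in at least 80% of segregants. The fits were tested on simulated data. Python 3.11.15 with numpy 2.4.6, pandas 2.3.3 and scipy 1.17.1 summarised them. Same-numbered BY and RM replicates deviated together (r 0.129 to 0.511 in 6 pairs). The main parental fit had no term for this pairing, so its standard errors and p-values ignore it. The replicate-block alternative took the numbers to pair the replicates.

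Named members are the 10 largest called differences per comparison, the 6 tested members nearest each marker, the cassette genes and up to 5 members called in the joint fits far from both markers. Members, lists and tests were chosen with earlier results of these data known. Alternatives were the dye, missing-value filters, centring, quantile normalization, class definitions, RM repeats, replicate block and left-out replicates.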

Additional observations from a re-analysis of the deposited data

How the results depend on the processing

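Counts of called members depended on the filter and the arrays used. Between the parents the 32 calls of 59 members became 49 of 91 with at least 3 values per parent, 56 with a value on either array, 20 of 59 with quantile normalization and 9 of 59 with all 3 groups in the fit. Over all probes the share called was 53.5%, 52.1%, 41.8% and 18.0% under these settings, against 56%. With the replicate block the count was 35 of 59, with 59.3% of all probes called. Without BY replicates 1 and 2 it was 36 of 59, with 68.55% of all probes called. Leaving out 1 replicate gave 26 to 32 of 59, with 52.2% to 58.5% of all probes called. For the LEU2 class the 13 calls of 120 became 20 of 126 on Cy3 arrays alone, with 8.95% of all probes called against 8.75%. For mating type the 9 of 120 became 14 of 129 on Cy5 arrays alone and 15 of 126 on Cy3 arrays alone. Over all probes 3.18% and 4.19% were called for mating type there, against 3.57%. For LEU2 in the joint fit the 2 became 4 without the 4 segregants whose LEU2 or mating score lay in the central one of 3 equal parts of the parental range, NFS1 and HCM1 being joined by FRM2 and RER1. Quantile normalization gave 3, the other being CDC39. Over all probes the joint fit called 3.42% and 2.50% for LEU2 under these settings, against 2.73%. Without the cassette genes and YCR041W, chosen after the values were seen, the counts were 30 (parents), 8 (LEU2), 4 (mating type), 2 (LEU2, joint) and 3 (mating type, joint). Median-centring split the LEU2 calls into 11 higher and 4 lower, in place of 11 and 2. The interaction count was 0 under each alternative run. The cause of these changes was not tested.

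The calls of BPH1 and AGP1 between the parents, of NFS1 and HCM1 for LEU2, and of RSC6, YCR041W and the 4 tested cassette genes for mating type were kept under each alternative run, with NFS1 between -0.39 and -0.32 for the LEU2 class. Quantile normalization moved the parental difference of BPH1 to -1.32, of YCR041W to -0.61, of YCR051W to -0.63 and of SRO9 to 0.90. None of the called differences recomputed under the alternatives reversed; members that were not called, and GBP2, RER1 and SAT4, were not followed singly. PHO87 lost its call on Cy5 arrays for mating type alone (0.08) and in 4 alternatives of the joint fit (0.09 to 0.11), TAF2 in the joint fit on Cy5 arrays (0.19), YCP4 in 2, CHA1 for LEU2 under quantile normalization (0.38), and CHA1, SRO9, YCL020W and YCR041W between the parents with all 3 groups. YCR051W between the parents lost its call under quantile normalization. The recombinant share was 22.1% with the MATALPHA1 probe and 22.2% without strains near the boundary. The class from the MATALPHA1 probe was not run for LEU2 fitted alone, which uses no mating class. Missing values kept all but 59 members out of the parental comparison and 15 out of the class comparisons.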
